A study of Mus musculus with 63 samples.

Results

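The enzymes that build O-linked sugar chains on mucins were followed through 63 bulk RNA sequencing libraries of mouse small intestinal tumours. The set held 10 genes, chosen by name: Galnt3, Galnt4, Galnt7, Galnt12, C1galt1, C1galt1c1, Gcnt1, Gcnt3, St6galnac1 and Fut2. Each matched 1 row of the 24766 genes of the deposited table. The rule that selects them uses only gene names, but the set was put together with earlier results of these data known. All tumours came from 2 mice, 1 female and 1 male, of the genotype Apchet;Confetti on a C57BL/6 background, in which Villin-creERT2 deletes 1 floxed Apc allele (Apc fl/+) and recombines the multicolour Confetti reporter at Rosa in the intestinal epithelium. Both mice, aged over 8 weeks, had received 4 mg tamoxifen intraperitoneally and 200 mg/kg of the mutagen ENU 10 days later. Heterotypic tumours held glands of more than 1 Confetti colour, or of 1 colour beside unlabelled glands. From 20 of them the clone of greater size (major) and that of lesser size (minor) were dissected under a fluorescence microscope. Each clone was sequenced separately, giving 20 pairs, 10 per mouse. Another 23 tumours, 10 of the female and 13 of the male, were sequenced undivided. The paper sets its clones against 20 monoclonal tumours of 2 mice, and the titles do not say which of these 23 they are. All 23 were used here. Sex and mouse coincide, every group shares the Apc, reporter, tamoxifen and ENU background, and no normal mucosa was analysed here.

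Mucin-type O-glycosylation starts in the Golgi, where polypeptide GalNAc transferases (the Galnt family) place N-acetylgalactosamine on serine or threonine. The T synthase C1galt1, which folds only with its chaperone C1galt1c1 (Cosmc), then adds galactose to make core 1, and the Gcnt enzymes branch core 1 into core 2 or core 3 into core 4. Chains end with fucose, added by Fut2, with sialic acid or with sulfate. In the intestine the main secreted carrier of these chains is Muc2, the gel-forming mucin of goblet cells, and enterocytes carry them on transmembrane mucins such as Muc13.

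The values are normalised counts per gene (gene counts estimated by Salmon and scaled between libraries by the authors), whose sums per library, in units of 1e6, ran from 26.1 to 45.9. The r between libraries lay between 0.913 and 0.979, and no pair of libraries held the same values. They are not the numbers of reads sequenced, so the true depth of a library is unknown and no counting interval is given. The epithelial markers Epcam, Cdh1, Krt8, Krt18 and Vil1 were above 0 in every library, as the tissue label requires. Libraries differed in the share of the count taken by the ribosomal RNA gene Rn18s, with a median of 1.24% among major clones (range 0.555 to 13.1), 6.19% among minor clones (range 1.03 to 15.6) and 3.11% where tumours were undivided (range 0.561 to 19.3). Male undivided tumours 15, 17 and 18 stood apart by their epithelial markers. Their mean log2 level over these was 14.7, 14.5 and 14.8, below the lowest major (14.99) and minor (14.9) clone. Rn18s took 10.96%, 14.4% and 19.3% of their counts. Only the last share exceeded every other library, since undivided male tumour 2 had 12.0% and the minor clone of female tumour 26 had 15.6%. For the enzymes of the set named in comparisons with undivided tumours, values without these 3 libraries are given as well. For other genes they are given only where stated. They are not given for SDs, for fits within 1 mouse, for the slopes of other pathway genes on Muc2 or for B3gnt6 by segment. In bulk samples fewer cells of a type and less RNA per cell cannot be told apart.

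Of the polypeptide GalNAc transferases that begin the chain, Galnt4, which prefers peptides that already carry a sugar, had the highest level of the set per kilobase of exon, 919.6 normalised counts per kb on average over the 63 libraries. Galnt3, a broadly acting initiator, averaged 594 per kb, Galnt12 489 and Galnt7, another enzyme for already glycosylated peptides, 379.7. Together these 4 made up 45.7% ± 4.99 (SD, n = 63 libraries) of the summed level per length of the 16 Galnt genes in the table. The highest single share belonged to Galnt6, at 19.8% ± 4.36, followed by Galnt4 with 17.8% ± 2.73, and Galnt1, another widely expressed initiator, held 15.98% ± 2.32. On the same per length scale the means of C1galt1 (479.95) and its chaperone C1galt1c1 (477) were close. C1galt1 was higher in 43 of 63 libraries, with a mean log2 ratio of -0.05 ± 0.59 (SD). The length covers all annotated exons of a gene, so levels compared between genes depend on it.

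The branching enzymes differed widely. Gcnt3, the mucin-type enzyme for core 2 and core 4, averaged 785 normalised counts per kb, whereas Gcnt1, the core 2 enzyme best known from leukocytes, averaged 28.7 and Gcnt4, a further core 2 enzyme outside the set, 228. The core 3 synthase B3gnt6 was near the floor, at 5.77 per kb. Among capping enzymes Fut2 averaged 524 per kb, against 144 for Fut4 and 8.58 for Fut9, which add fucose to N-acetylglucosamine. St6galnac1, which caps the first sugar with sialic acid and so makes the sialyl-Tn antigen, was listed at 0 in 49 of 63 libraries. Its highest value, a normalised count of 25.6, was in male undivided tumour 5, and no other library exceeded 4.04. It did not pass the filter of a mean of at least 10 in any comparison, so 9 of the 10 genes were tested.

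Ordered by mean level per length the set ran Galnt4, Gcnt3, Galnt3, Fut2, Galnt12, C1galt1, C1galt1c1, Galnt7, Gcnt1 and St6galnac1. The first 7 steps of this order were smaller than the spread over libraries. Galnt4 exceeded Gcnt3 in 45 of 63 libraries with a mean log2 ratio of 0.34 ± 0.57 (SD), and Fut2 exceeded Galnt12 in 34 of 63 with a mean log2 ratio of 0.01 ± 0.56. Only the last 2 steps were larger than 1 SD. Galnt7 exceeded Gcnt1 in all 63 libraries, by 3.75 ± 0.77 on the log2 scale, and Gcnt1 exceeded St6galnac1 in all 63.

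**Figure D1:**
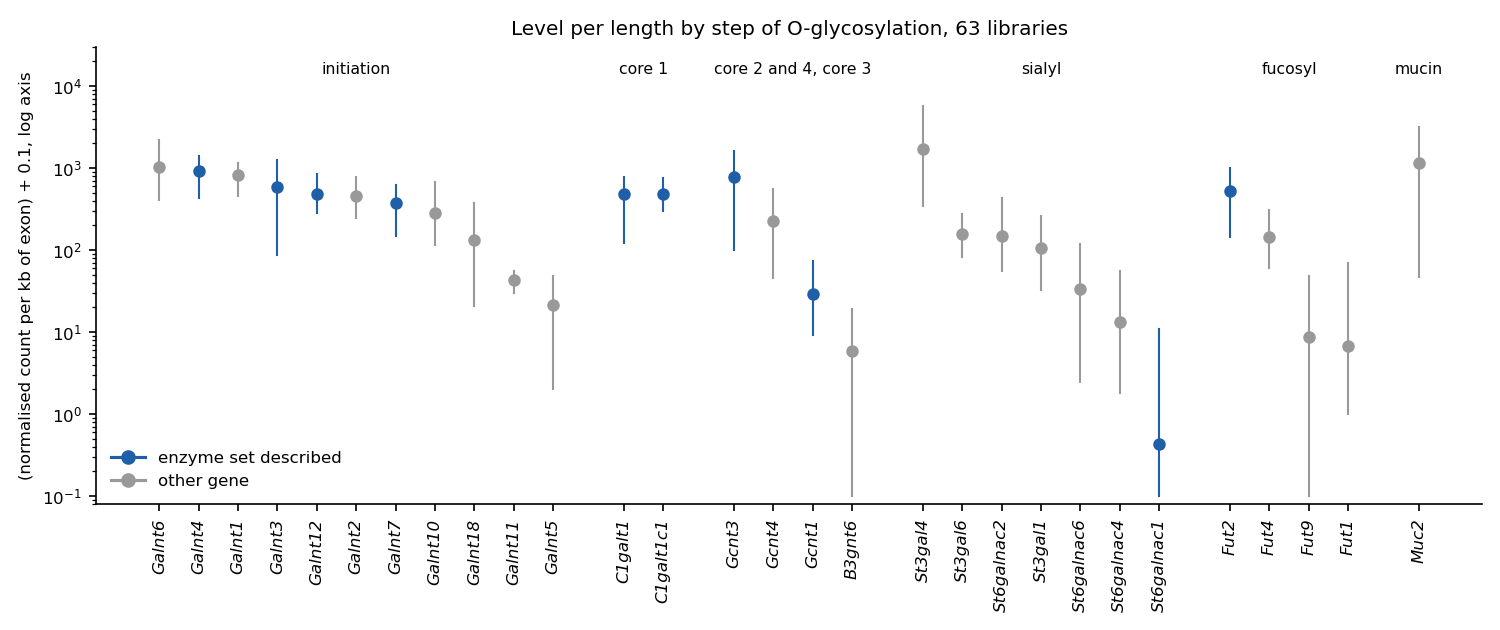
Level of each enzyme per kilobase of exon (normalised count per kb plus 0.1, log axis), by step of the pathway, with Muc2 at the right. Points are means and lines run from the lowest to the highest of 63 libraries; blue marks the 10 enzymes described and grey other genes. Apart from Gcnt1 (28.7) and St6galnac1 (0.331), the means of the blue genes lie between 379.7 and 919.6.

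On GRCm39, in the Gencode M39 annotation, the initiators lie at chr2:65913110-65955482 on the minus strand (Galnt3, ENSMUSG00000026994), chr10:98944021-98949109 on the plus strand (Galnt4, ENSMUSG00000090035), chr8:57976860-58106088 on the minus strand (Galnt7, ENSMUSG00000031608) and chr4:47091905-47123070 on the plus strand (Galnt12, ENSMUSG00000039774). The core genes lie at chr6:7844634-7875687, plus (C1galt1, ENSMUSG00000042460), chrX:37719034-37724025, minus (C1galt1c1, ENSMUSG00000048970), chr19:17303505-17350208, minus (Gcnt1, ENSMUSG00000038843), and chr9:69938778-69945370, minus (Gcnt3, ENSMUSG00000032226). The capping genes lie at chr11:116655851-116666333, minus (St6galnac1, ENSMUSG00000009588), and chr7:45298015-45315818, minus (Fut2, ENSMUSG00000055978). Values are sums over whole genes and name no exon. Galnt4 overlaps Poc1b on the same strand, so estimated counts may be split between them and the level of Galnt4 is uncertain to that extent. Galnt7 overlaps 8 annotated genes, some on its own strand.

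Promoters in the RefSeq table (GRCm38.p6, 250 bases before to 50 bases after a start) were matched for 4 of the 10 genes: Galnt3, Galnt7, C1galt1 and Gcnt1. The first 3 are printed, since Galnt3 and C1galt1 are the pair whose levels moved together most closely in undivided tumours and Galnt7 came nearest to a difference between clones (both described below). The windows are chr2:66124744-66125043 on the minus strand for Galnt3, chr6:7844974-7845273 on the plus strand for C1galt1 and chr8:57653006-57653305 on the minus strand for Galnt7. They are written 5′ to 3′, with capitals at matches to the motifs searched.
Galnt3: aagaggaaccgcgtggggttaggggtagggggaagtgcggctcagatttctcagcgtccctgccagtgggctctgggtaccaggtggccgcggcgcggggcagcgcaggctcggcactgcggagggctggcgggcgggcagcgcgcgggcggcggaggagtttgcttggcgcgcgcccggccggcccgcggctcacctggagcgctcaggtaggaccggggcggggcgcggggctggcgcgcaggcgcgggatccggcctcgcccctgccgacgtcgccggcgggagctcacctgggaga
C1galt1: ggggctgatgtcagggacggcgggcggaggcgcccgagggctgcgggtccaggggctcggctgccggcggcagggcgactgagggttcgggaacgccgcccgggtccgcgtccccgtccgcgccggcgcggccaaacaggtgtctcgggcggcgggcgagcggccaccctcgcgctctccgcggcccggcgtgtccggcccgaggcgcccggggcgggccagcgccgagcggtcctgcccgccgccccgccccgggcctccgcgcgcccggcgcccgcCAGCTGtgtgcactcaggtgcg
Galnt7: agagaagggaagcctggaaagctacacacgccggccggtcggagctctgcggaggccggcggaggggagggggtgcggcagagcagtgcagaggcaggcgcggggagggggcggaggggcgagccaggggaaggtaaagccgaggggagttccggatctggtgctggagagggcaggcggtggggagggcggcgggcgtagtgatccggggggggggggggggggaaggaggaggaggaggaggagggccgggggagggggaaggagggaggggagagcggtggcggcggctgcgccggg
All 3 windows were rich in G and C, at 76.7% (Galnt3), 82.7% (C1galt1) and 75.0% (Galnt7), against a median of 52.7% over 32851 promoters. Their observed over expected CpG ratios were 0.972, 1.02 and 0.857, against a median of 0.384. Both strands were searched for the E-box letters CAGCTG and CAGATG, the TCF/LEF core CTTTGAT, the CDX core TTTATNG and the TATA box TATAAA, which stand in 16.3%, 17.2%, 3.73%, 10.9% and 13.6% of all promoters. The only match in the 3 windows was CAGCTG in C1galt1, 29 bases from the start. Of the 3 Gcnt1 windows, with 40.7%, 58.7% and 52.0% G and C, one held 2 TATA box matches. A match is a description of letters and names no bound factor.

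On the log2 scale the SD of Galnt3, C1galt1 and Gcnt3 was larger in undivided tumours (0.96, 0.71 and 0.93) than in major (0.50, 0.36 and 0.50) or minor clones (0.54, 0.47 and 0.64). In the female mouse the SDs in undivided tumours were 0.27, 0.29 and 0.44. Those of its major clones were 0.27, 0.18 and 0.57, and of its minor clones 0.45, 0.22 and 0.55. In the male, undivided tumours had 1.18, 0.77 and 1.04, major clones 0.66, 0.47 and 0.44 and minor clones 0.64, 0.60 and 0.71. The male group holds tumours 15, 17 and 18, and SDs without them were not computed. Among undivided tumours, male 15, 17 and 18 had Galnt3 at normalised counts of 481, 813 and 674, below the lowest of the other 60 libraries (1381). C1galt1 was 1750, 1950 and 1495 there, also below the lowest of the others (2203), and Gcnt3 was 433, 1223 and 689, where the lowest elsewhere was 1279. These are 1 of the initiating transferases, the core 1 enzyme and the mucin-type branching enzyme. Galnt4 (2421, 3425 and 2169), Galnt12 (1012, 912 and 918), Galnt7 (1415, 1457 and 1135) and Fut2 (1935, 965 and 801) were low but overlapped other libraries. C1galt1c1 (1252, 1494 and 804) and Gcnt1 (121, 112 and 135) lay within the range of the rest, and Muc2 (4082, 2792 and 12698) did too. The low epithelial markers and the Rn18s share of these libraries are given above, and their part in these levels was not tested.

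**Figure D2:**
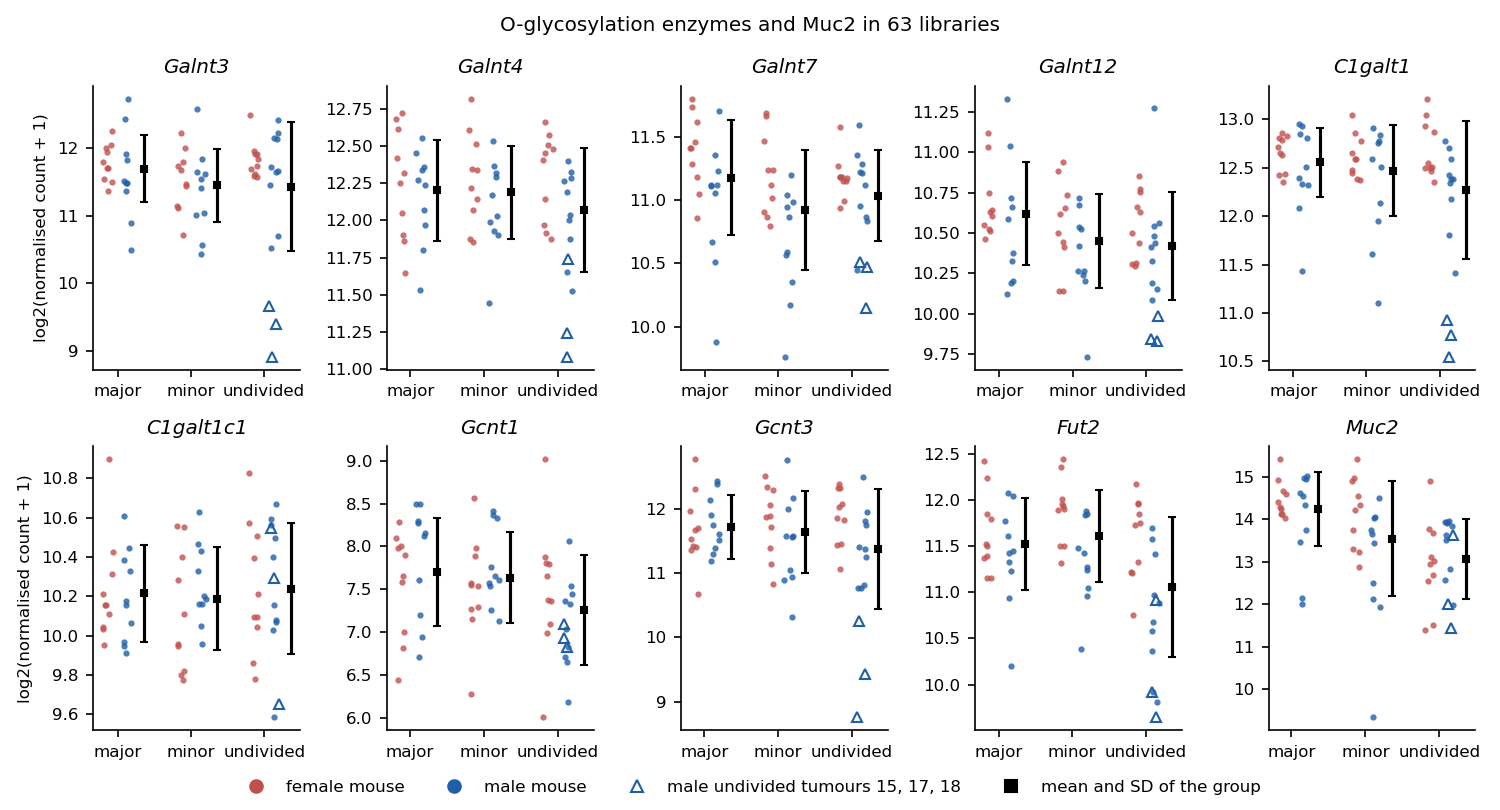
Level of 9 enzymes and Muc2, as log2(normalised count + 1), in 20 major clones, 20 minor clones and 23 undivided tumours. Each point is a library, coloured by mouse; squares with bars are the mean and SD of each group, and open triangles mark male undivided tumours 15, 17 and 18, which hold the 3 lowest values of Galnt3, C1galt1 and Gcnt3.

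The 2 clones of each heterotypic tumour were compared to ask whether the larger clone carries more or less of the pathway. None of the 9 enzymes tested differed at an adjusted p under 0.05 (limma with tumour as block, Benjamini-Hochberg over all genes), against 1.14% of the 16428 genes tested (188 genes). At an unadjusted p under 0.05 there were 2 of the 9, against 22.4% of all genes (3680). The exact Wilcoxon signed-rank test per gene also called none of the 9 and 48 genes in all. The log2 differences of the 9, major minus minor, had a median of 0.08, beside 0.01 over all genes, and 8 of the 9 were above 0.

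Galnt7 came nearest. Its normalised counts were 939, 2357 and 3560.2 (lowest, median, highest) in major clones and 867, 1998 and 3300.3 in minor clones, so the classes overlapped almost fully. It was higher in the major clone of 16 of 20 tumours, by 0.25 on the log2 scale (SE 0.07, 95% interval 0.10 to 0.41, limma adjusted p = 0.0691). Leaving out 1 tumour at a time gave 0.23 to 0.30, with an adjusted p of 0.0263 without female tumour 27, 0.0348 without female tumour 19, and up to 0.116 otherwise. Without the tumour block the adjusted p was 0.444. With the Rn18s level as a covariate the log2 difference was 0.14 (limma adjusted p = 0.725).

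Galnt3 had medians of 3340.1 (1440.4 to 6795) in major and 2918 (1381 to 6129) in minor clones. It was higher in the major clone of 14 of 20 tumours, by a log2 difference of 0.25 (SE 0.09, 95% interval 0.05 to 0.44, limma adjusted p = 0.128). With the Rn18s level as a covariate its log2 difference was 0.02 (SE 0.12). Galnt12, an initiator expressed mainly in the gut, differed by 0.17 on the log2 scale (SE 0.08, limma adjusted p = 0.224) and was higher in 12 of 20 major clones, with 0.05 under the same covariate and 0.08 with the mean level of 6 stroma markers in its place (Galnt3 0.13). Galnt4 differed by 0.02 (SE 0.06), with a 95% interval from -0.11 to 0.14, the narrowest of the 9.

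The core and capping enzymes had estimates near 0. C1galt1 differed by 0.09 (SE 0.08, higher in 11 of 20) and C1galt1c1 by 0.03 (SE 0.07, 11 of 20). The branching enzymes varied more from tumour to tumour. Gcnt3 differences ran from -1.11 to 2.11 around a mean of 0.08 (SE 0.15), and Gcnt1 differences from -1.10 to 1.301 around 0.06 (SE 0.14). Fut2 was lower in 13 of 20 major clones, by a mean log2 difference of -0.09 (SE 0.10). In the female mouse it was higher in the major clone of 1 of 10 tumours and in the male of 6 of 10. The clone difference did not pass the test between the mice for Fut2 (log2 difference of differences, female minus male, -0.31, 95% interval -0.74 to 0.11, limma adjusted p = 0.731). Across all genes none of 16428 (0%) was called in that test, with 1228 at an unadjusted p under 0.05, so no enzyme of the set was, at unadjusted p-values from 0.140 (Fut2) to 0.998 (Gcnt1).

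**Figure D3:**
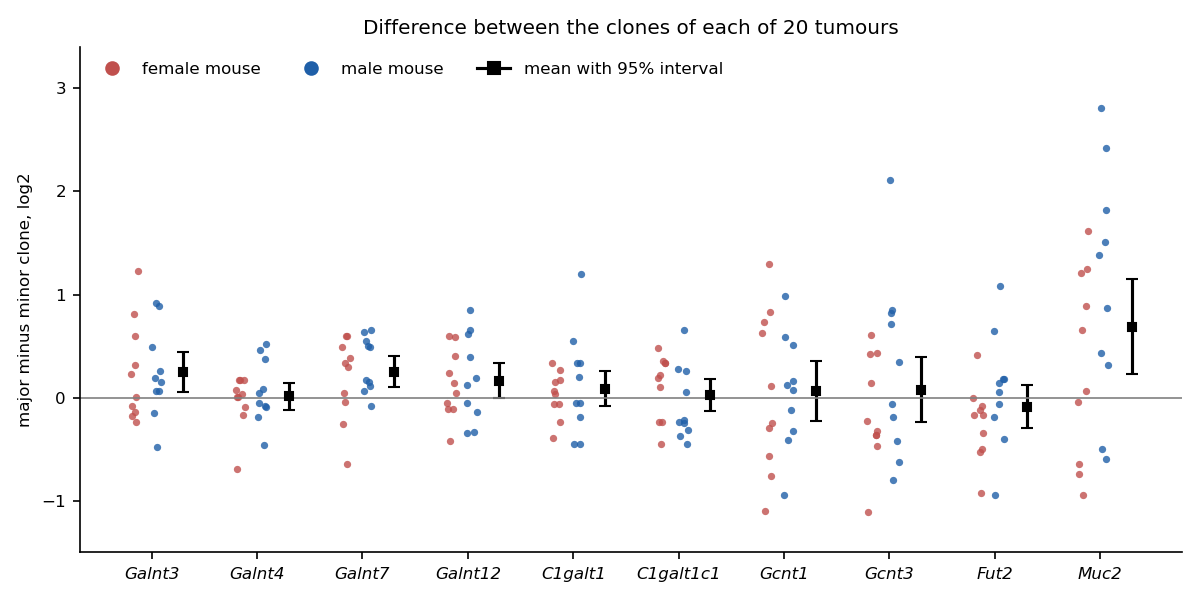
Major minus minor difference of log2(normalised count + 1) in each of 20 tumours for 9 enzymes and Muc2. Points are tumours coloured by mouse and squares the mean with its 95% interval; the intervals of Galnt3, Galnt7 and Muc2 lie above 0, and none of the 10 had an adjusted p under 0.05.

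Muc2 itself did not pass, and a few other genes of the pathway did. Muc2 had a median of 21216 in major clones (4099 to 43642) and 13746 in minor clones (646 to 43562), and was higher in the major clone of 14 of 20 tumours, by 0.69 on the log2 scale (SE 0.22, limma adjusted p = 0.0817). Among other initiators 1 of 10 tested passed: Galnt5 rose by 0.75 in major clones (SE 0.17, limma adjusted p = 0.0377), higher in 18 of 20, with medians of 146 and 102. None of the 2 other core enzymes tested passed. B3gnt6, which makes core 3, had a log2 difference of 0.92 (SE 0.24, limma adjusted p = 0.0517), and Gcnt4 of 0.38 (SE 0.11, limma adjusted p = 0.0682).

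Of 31 elongation and capping genes tested, 2 rose in major clones and none fell. A4gnt, which caps gastric gland mucins with N-acetylglucosamine, rose by 1.56 (SE 0.28, limma adjusted p = 0.0197) and was higher in 17 of 20 major clones, with medians of 83.6 and 41.3. B3gnt5, which extends glycolipid chains, rose by 0.75 (SE 0.17, limma adjusted p = 0.0392) in 18 of 20. Of 25 genes for nucleotide sugars and sulfate donors, 2 rose: Papss2, which makes the sulfate donor PAPS, by 0.49 (SE 0.11, limma adjusted p = 0.0352), and Gne, the rate-limiting enzyme of sialic acid synthesis, by 0.43 (SE 0.10, limma adjusted p = 0.0401), higher in 19 of 20 major clones. None of 6 sulfotransferases and none of 8 mucins tested passed.

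Cell markers were compared between the clone classes in the same fit, and their relation to these genes was not tested. All 9 goblet markers other than Muc2 were higher in major clones on average, with a median log2 difference of 0.49, and 3 passed (Clca1, Creb3l1 and Spink4). The summed normalised count of the 10 goblet genes, Muc2 included, ran from 107800 to 316600 in major and from 28310 to 255500 in minor clones, and Retnlb was at 0 in 1 minor clone. Of 7 enterocyte markers all were higher and Sis passed, by 1.10 (SE 0.26). The 4 gastric or Brunner gland markers were lower and none passed, with sums of 131 to 8104 in major and 561 to 71520.0 in minor clones. Of 6 stroma markers, 5 were higher in major clones and none passed, with sums of 1932 to 22870 and 1857 to 23160. All 5 immune and all 3 muscle markers were higher, with median log2 differences of 0.44 and 0.58. The same held for all 5 epithelial, 3 of 4 Paneth and 2 of 3 endothelial markers, and none of these passed. With mean stroma marker level as a covariate 5 genes of the table were called, and with Rn18s 1 gene; Galnt5, A4gnt, B3gnt5, Papss2 and Gne were among neither, at log2 differences from 0.37 to 1.38 in the first and 0.44 to 1.22 in the second.

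Undivided tumours were compared with each clone class in turn, and both comparisons share the same 23 undivided libraries. Against minor clones none of the 9 enzymes passed the limma test, against 3.7% of 16491 genes (610). At an unadjusted p under 0.05 there were 2 of 9, Fut2 and Gcnt1, against 19.6% of all genes (3226). Against major clones none passed, against 0.0121% of 16510 genes (2), with the same 2 of 9 at an unadjusted p under 0.05 and 1973 in all. No second test was run for these.

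Fut2, which makes the H blood group antigen of gut secretions, had the lowest estimate of the 9 for undivided tumours against minor clones, and Gcnt1 had it against major clones. Its normalised counts were 801, 2366 and 4618 (lowest, median, highest) in undivided tumours, 1334, 3278 and 5572 in minor and 1173, 2840 and 5494 in major clones, so all 3 groups overlapped. The log2 change was -0.50 against minor clones (SE 0.16, 95% interval -0.82 to -0.19, limma adjusted p = 0.0561) and -0.43 against major clones (SE 0.17, limma adjusted p = 0.350). Without male tumours 15, 17 and 18 the 2 changes were -0.42 (limma adjusted p = 0.0843) and -0.33 (limma adjusted p = 0.453). Within the female mouse alone Fut2 differed from minor clones by -0.29 (SE 0.17) and from major clones by -0.05 (SE 0.18), and within the male by -0.69 (SE 0.24) and -0.76 (SE 0.25). The male fits include undivided tumours 15, 17 and 18 and were not run without them.

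The call for Fut2 against minor clones depended on the setting. It passed in 9 of 43 fits that left out 1 library, over which the adjusted p ran from 0.0330 to 0.0995 and the log2 change from -0.55 to -0.46. Among those libraries were minor clones of female tumour 24 (limma adjusted p = 0.0404) and male tumour 19 (0.0405) and undivided male tumour 7 (0.0330). The others were undivided female tumours 2 (0.0435), 3 (0.0480), 8 (0.0441) and 10 (0.0493) and male tumours 3 (0.0467) and 6 (0.0393). With Rn18s as a covariate the log2 change was -0.63 (SE 0.12, limma adjusted p = 0.00225).

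Gcnt1 had medians of 159 (63.2 to 518) in undivided tumours, 190.1 (76.7 to 378) in minor and 245 (85.9 to 359) in major clones. The log2 change was -0.37 against minor (SE 0.18, limma adjusted p = 0.245) and -0.44 against major clones (SE 0.19, limma adjusted p = 0.381), and without male tumours 15, 17 and 18 it was -0.33 (SE 0.19) and -0.40 (SE 0.21). In the male mouse alone it was -0.69 against minor clones (SE 0.20, limma adjusted p = 0.0464) and in the female -0.01 (SE 0.29). Against major clones the values were -0.75 (SE 0.23) and -0.08 (SE 0.30). The difference between the mice was not tested for undivided tumours, and the male fits, which include tumours 15, 17 and 18, were not run without them. Gcnt3 changed by -0.23 (SE 0.22) against minor clones, and by 0.01 (SE 0.17) without male tumours 15, 17 and 18. C1galt1 changed by -0.17 (SE 0.16) and 0.03 (SE 0.12) in the same way.

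None of the initiators passed against minor clones. Galnt3 changed by 0.01 (SE 0.23) with all 23 tumours and by 0.30 (SE 0.16, limma adjusted p = 0.251) without male tumours 15, 17 and 18. Galnt7 changed by 0.14 (SE 0.11) and 0.21 (SE 0.11), Galnt4 by -0.10 (SE 0.10) and -0.01 (SE 0.09), and Galnt12 by -0.02 (SE 0.09) and 0.05 (SE 0.09). C1galt1c1 changed by 0.05 (SE 0.09) and 0.06 (SE 0.09), with a 95% interval of -0.14 to 0.23 over all tumours. Against major clones the 4 initiators lay between -0.23 and -0.12 with all tumours and between -0.12 and 0.05 without those 3. Muc2 was lower in undivided tumours than in major clones by -1.15 on the log2 scale (SE 0.27, limma adjusted p = 0.132), with a median of 8815 against 21216, and by -1.05 (SE 0.27) without male tumours 15, 17 and 18. It passed when the major clone of male tumour 19 was left out (limma adjusted p = 0.0395). Against minor clones Muc2 changed by -0.44 (SE 0.34), by -0.36 (SE 0.35) without those 3, and by -1.20 in the female and 0.24 in the male mouse alone.

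**Figure D4:**
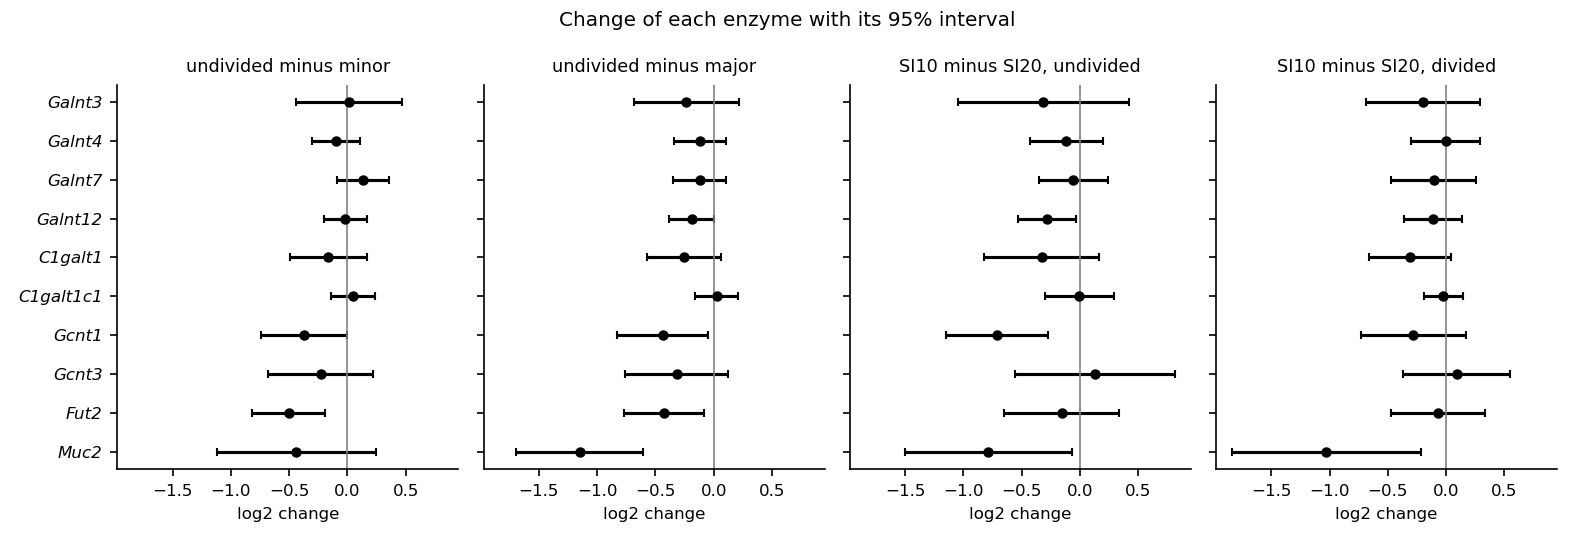
Log2 change of 9 enzymes and Muc2, with 95% intervals, for undivided tumours minus minor clones, undivided tumours minus major clones (both share the 23 undivided tumours), and SI10 minus SI20 in undivided and in divided tumours. The intervals that lie below 0 are those of Fut2 and Gcnt1 in the first panel, Fut2, Gcnt1 and Muc2 in the second, Galnt12, Gcnt1 and Muc2 in the third and Muc2 in the fourth, and none of these had an adjusted p under 0.05.

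Other pathway genes did pass the limma test for undivided tumours against minor clones, with values of the groups that overlapped for each gene. Among 10 other initiators Galnt2, a widely expressed GalNAc transferase, fell by 0.39 on the log2 scale (SE 0.08, limma adjusted p = 0.00985), with medians of 3744 in undivided tumours and 4834 in minor clones. Among 31 elongation and capping genes 1 rose and 2 fell. Fut4, which makes the Lewis x group, rose by 0.53 (SE 0.15, limma adjusted p = 0.0364). Fut9, which makes the same group, had a change of -2.11 (SE 0.59, limma adjusted p = 0.0369), with a median of 28.1 against 147. Ggta1, which makes the alpha-galactose epitope, had a change of -1.14 (SE 0.23, limma adjusted p = 0.00985).

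Genes of sulfation passed too. Of 6 sulfotransferases Gal3st2, which sulfates galactose, rose by 0.96 (SE 0.19, limma adjusted p = 0.00904), and of 25 genes of sugar and sulfate supply Papss2 rose by 1.09 (SE 0.28, limma adjusted p = 0.0242), with medians of 29559 in undivided tumours and 13429 in minor clones. Of 8 mucins Muc13 rose by 0.65 (SE 0.16, limma adjusted p = 0.0188). These 7 genes kept an adjusted p under 0.05 without male tumours 15, 17 and 18 and with Rn18s or the stroma markers as a covariate, and none passed in the female mouse alone, where no gene of the table did. With mouse and the segment of the intestine (described below) as covariates, 367 genes of the table passed, against 610. These 7 genes were not checked under that setting. In the male mouse alone Fut9 did not pass (limma adjusted p = 0.0893). Of the markers of other cells, 1 of 7 enterocyte markers passed (Sis, by 1.17), with all 7 above 0 and a median change of 0.49, and 1 of 5 immune markers (Cd3e, T cells, by 0.94), with all 5 above 0 and a median of 0.52. Of 9 goblet markers Clca1 passed, by 0.97, while 4 of 9 were above 0 and the median was -0.28. Of 3 endothelial markers Cdh5 passed, by -1.12, while the other two were above 0 and the median was 0.03. The summed level of the 3 endothelial markers ran from 481 to 9209 in undivided tumours and from 985 to 10610 in minor clones, and that of the 7 enterocyte markers from 177600 to 1768000 and from 112800 to 1247000. The 5 immune markers summed to 618 to 5420.0 and 719 to 4627, with Cd79a at 0 in 1 minor clone; the others were above 0 in every library. Cd3e and Cdh5 did not pass without male tumours 15, 17 and 18 (limma adjusted p = 0.0715 and 0.0737), and the part of these cells in the result was not tested.

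The position along the intestine was compared through the segment labels SI10 and SI20, whose meaning the labels do not explain. In undivided tumours (12 SI10 and 11 SI20) none of the 9 enzymes passed, against 0.17% of 16511 genes (28, with 1258 at an unadjusted p under 0.05). Gcnt1 had a median of 117 in SI10 (63.2 to 220.5) and 173 in SI20 (135 to 518), a log2 change of -0.71 (SE 0.21, 95% interval -1.15 to -0.27, limma adjusted p = 0.306). Galnt12 changed by -0.28 (SE 0.12, limma adjusted p = 0.603), with medians of 1268 and 1512. Muc2 changed by -0.78 (SE 0.35, limma adjusted p = 0.613). Without male tumours 15, 17 and 18 these 3 changes were -0.77, -0.29 and -0.56.

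In divided tumours, taking the mean of both clones (7 SI10 and 10 SI20, leaving out the 2 SI30 tumours and female tumour 22, whose major clone was labelled SI20 and whose minor clone SI10), again none of the 9 passed, against 0.28% of 16436 genes (46, with 2358 at an unadjusted p under 0.05). Gcnt1 changed by -0.28 (SE 0.21, limma adjusted p = 0.528), Galnt12 by -0.11 (SE 0.12) and C1galt1 by -0.31 (SE 0.17, limma adjusted p = 0.387). Muc2 changed by -1.03 (SE 0.39, limma adjusted p = 0.276), with medians of 13730.0 and 23698. Of the other pathway genes Papss2 was higher in SI10, by 1.28 in undivided (SE 0.25, limma adjusted p = 0.0278) and 1.34 in divided tumours (SE 0.26, limma adjusted p = 0.0375). B3gnt6, named after its values were seen, was lower in SI10, by -1.63 in divided tumours (SE 0.28, limma adjusted p = 0.0184) and -1.73 in undivided ones (SE 0.49, limma adjusted p = 0.230). Its medians were 5.25 in SI10 and 19.3 in SI20 of divided tumours, and 7.09 and 20.3 in undivided ones. In divided tumours B3gnt6 was near the floor in SI10 and passed the filter on a mean of 10 only through SI20. Its adjusted p is therefore no support for a difference. The Papss2 call in undivided tumours ended without male tumours 15, 17 and 18 (log2 change 1.32, limma adjusted p = 0.113).

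The difference between clones was not shown to depend on the segment. In the test of that difference none of 16436 genes (0%) was called and 672 had an unadjusted p under 0.05, and no other tool was run. Gcnt3 had the largest estimate of the set, a log2 difference of differences of 0.54, SI10 minus SI20, with a 95% interval of -0.21 to 1.29. C1galt1 had 0.35 (-0.06 to 0.75) and Gcnt1 -0.34 (-0.95 to 0.28).

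Whether the enzymes follow their main carrier was asked first across the 23 undivided tumours. The slope of each enzyme on Muc2, with mouse as a covariate, was above 0 for all 9, and none passed, against 0.824% of 16510 genes (136, with 3044 at an unadjusted p under 0.05). Galnt3 rose by 0.40 log2 units per log2 unit of Muc2 (SE 0.18, limma adjusted p = 0.231) and Galnt7 by 0.16 (SE 0.07, limma adjusted p = 0.238). Gcnt1 had a slope of 0.25 (SE 0.13) and C1galt1 of 0.24 (SE 0.12), whereas Galnt4 (0.03, SE 0.08) and Fut2 (0.02, SE 0.13) had slopes near 0. Without male tumours 15, 17 and 18 the slopes were 0.15 for Galnt3, 0.12 for Galnt7, 0.10 for C1galt1 and 0.30 for Gcnt1, and those of Galnt4 (-0.03), Gcnt3 (-0.07) and Fut2 (-0.02) were below 0.

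As correlations after subtracting the mean of each mouse, with 18 relations computed over both designs, Galnt7 had r = 0.437 and rho = 0.451 (permutation p = 0.0290 and 0.0332, adjusted 0.265 for r). Galnt3 had r = 0.427 and rho = 0.318 (permutation p = 0.0294 and 0.136, adjusted 0.265 for r). Without the 2 tumours farthest from the median of Muc2 the r values were 0.343 and 0.416, and without male tumours 15, 17 and 18 they were 0.418 and 0.278. Within the female mouse r was 0.711 for Galnt7 and 0.707 for Galnt3 (n = 10 tumours, no test), and within the male 0.411 and 0.477 (n = 13). The median r with Muc2 over all 16510 genes was 0.0012.

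**Figure D5:**
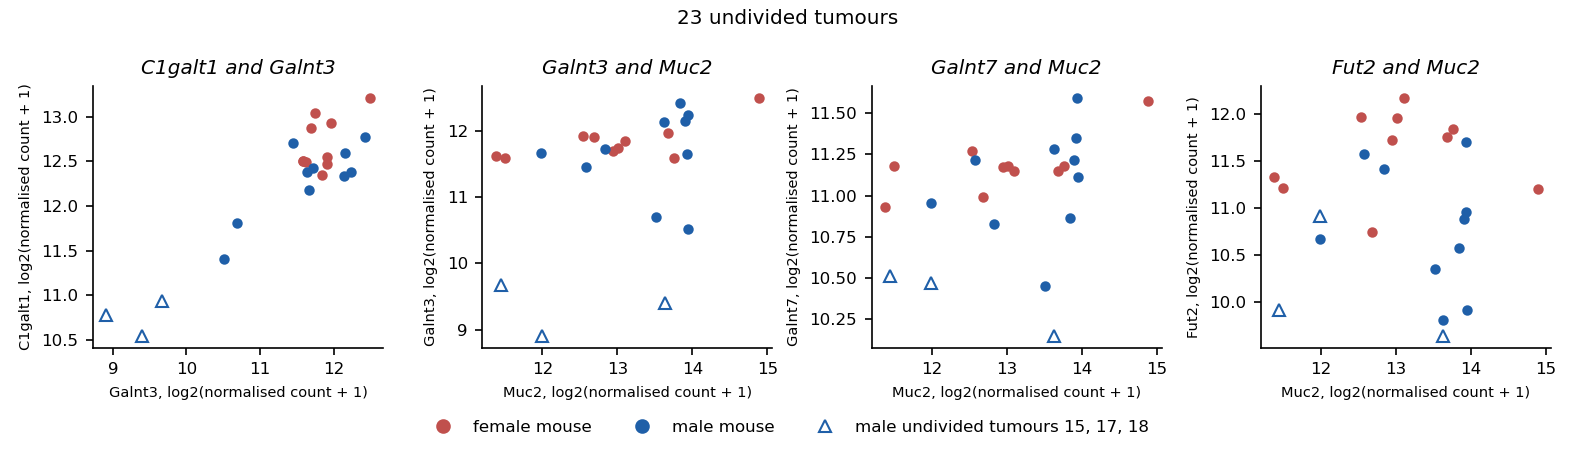
Values of 23 undivided tumours, as log2(normalised count + 1) on both axes: C1galt1 against Galnt3, then Galnt3, Galnt7 and Fut2 against Muc2. Points are tumours coloured by mouse, and open triangles are male tumours 15, 17 and 18, which are low for Galnt3 and C1galt1. Their normalised counts of Muc2 were 4082, 2792 and 12698.

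Other genes of the pathway did pass on Muc2. Of 31 elongation and capping genes B3gnt5 had a slope of 0.93 (SE 0.15, limma adjusted p = 0.00745). Genes outside the naming rule, picked out after their values were seen, were the core 2 enzyme Gcnt4, with 0.58 (SE 0.12, limma adjusted p = 0.0217), the initiator Galnt6, with 0.47 (SE 0.10, limma adjusted p = 0.0322), and the fucose salvage kinase Fcsk, with 0.21 (SE 0.05, limma adjusted p = 0.0420). Of 9 goblet markers Spink4 and Fcgbp passed, of 7 enterocyte markers Fabp1 and Fabp2, and of 5 epithelial markers Vil1. None of the 6 stroma markers passed, and all 6 slopes were above 0, with a median of 0.61; their part in the relation to Muc2 was not tested beyond the covariate that follows. Without the 2 tumours farthest from the median of Muc2, or with the stroma markers as a covariate, no gene of the table passed; the slopes of Gcnt4 were then 0.60 and 0.54.

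Within tumours the clone difference of each enzyme was related to that of Muc2, and none passed. Over 20 tumours none of 16427 genes (0%) was called and 824 had an unadjusted p under 0.05. The slopes of the 9 enzymes on the Muc2 difference ran from -0.13 (Fut2, 95% interval -0.34 to 0.08) to 0.14 (Gcnt1, -0.17 to 0.45), with 0.01 for Galnt7 (-0.16 to 0.18) and -0.01 for Galnt3 (-0.24 to 0.21). The r values of the 9 lay between -0.299 and 0.214, with permutation p-values from 0.239 to 0.968.

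The enzymes were next related to each other. Of 36 pairs of the 9 enzymes, 33 had r above 0 across undivided tumours, with a median of 0.399, and 13 passed by r at an adjusted p under 0.05 over the 72 relations computed (permutation within mice), all positive. The points share their library, so whatever scales all genes of a library enters every pair. No share over pairs of other genes was computed, so these counts have no background beside them. Galnt3 and C1galt1 were the closest pair, at r = 0.923 and rho = 0.861 (permutation p = 1e-05 for both, the smallest that 100000 permutations can give, adjusted 0.00072 for r). Their r was 0.863 without the 2 farthest tumours, 0.756 without male tumours 15, 17 and 18, 0.580 within the female and 0.953 within the male mouse. Over the tumours numbered 1 to 10 of each mouse the median r of the 36 pairs was 0.228. Galnt3 and Gcnt3 turned from r = 0.673 and rho = 0.411 (permutation p = 0.00498 and 0.0784, adjusted 0.0205 for r) to r = -0.0947 there, so that relation rests on male tumours 15, 17 and 18. The lowest pair was C1galt1c1 and Fut2, at r = -0.476 and rho = -0.593 (permutation p = 0.0267 and 0.00443, adjusted 0.0738 for r and 0.0456 for rho). Its r was -0.301 without the 2 farthest tumours, -0.680 in the female and -0.393 in the male mouse, and -0.727 over the tumours numbered 1 to 10.

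In the clone differences what both clones of a tumour share drops out. Each clone is its own library, so whatever scales all genes of 1 of the 2 libraries still enters every pair. These relations were not computed with the Rn18s level as a covariate. Of 36 pairs, 29 had r above 0, with a median of 0.338, and 7 passed by r, all positive. C1galt1 and Gcnt3 had the highest r, 0.696 and rho 0.523 (permutation p = 0.00391 and 0.0296, adjusted 0.0188 for r), with 0.398 without the 2 farthest tumours, 0.0264 within the female mouse and 0.881 within the male, so that relation rests largely on those 2 tumours. Galnt3 and Galnt12 had r = 0.686 and rho = 0.698 (permutation p = 0.00117 and 0.00098, adjusted 0.00936 for r), with 0.639 without the 2 farthest tumours, 0.689 in the female and 0.705 in the male mouse. The 4 initiators and C1galt1 made up 6 of the 7 pairs that passed. Here too no share over pairs of other genes was computed, so the counts do not set these enzymes apart.

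By the rule set for naming, the 5 genes most like the mean z score of the set over the 23 undivided tumours were Tnfrsf23, a decoy receptor for the ligand TRAIL (r = 0.921), Gfpt1, the first enzyme of the hexosamine pathway that supplies UDP-GlcNAc (0.915), Rab27b, a GTPase of secretory granules (0.912), B4galt6, a galactosyltransferase of glycolipids (0.911), and Slc16a3, a lactate transporter (0.904). Over the tumours numbered 1 to 10 of each mouse the 5 values lay between 0.695 and 0.869. These genes were picked for their r, so it is a description over 23 tumours of 2 mice, with no test. Gfpt1 had a log2 difference of 0.27 between major and minor clones (limma adjusted p = 0.0633), higher in 16 of 20 major clones.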

How the data were processed

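RNA of tumours or microdissected clones was sequenced from Illumina Stranded mRNA libraries. As deposited, the signal is a normalised count per gene: the authors quantified reads with Salmon 1.9.0 against Gencode M30 (GRCm39) and scaled libraries by a step not given in the sources used here. Values are not whole, so no count model was used. Undivided tumours carry no clone letter in their titles, and the classes of clones came from the source data of the study, keyed by title; clones were paired by tumour number, that is, by the tumour itself. Low genes (mean under 10 in the libraries of a comparison) were dropped, and the rest were tested on log2(value + 1) with limma 3.58.1 (eBayes with trend, R 4.3.3), with tumour as block or mouse as covariate, and Benjamini-Hochberg over all genes, threshold 0.05. Tumours are the replicates, and both mice are 1 animal each. Correlations used 100000 two-sided permutations within mice. Fits were tested on simulated data. The members and gene lists were chosen with earlier results of these data known. Named were all members, Muc2, list genes called between major or undivided and minor libraries (at most 4 a list, else the 2 with the largest change), and the 5 genes most like the set. Listed genes Galnt13, Galntl5, Gcnt7, Muc6, Muc15, Muc16 and Muc17 were not analysed here. Lengths and positions are from Gencode M39. Alternatives were pseudocounts of 0.1 and 5, other filters and scalings, covariates, single mice, subsets and leaving out libraries.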

Additional observations from a re-analysis of the deposited data

Results flagged for a closer look

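For each of 9 enzymes and Muc2, 7 sets of 10 values (major and minor clones and their differences in each mouse, and undivided tumours of the female), 70 in all, were searched for a highest or lowest value far from its neighbours, and 6 were found; the 13 undivided tumours of the male were not searched. Chance alone gives about 1 in 20, or 3.5 of 70. On the log2(value + 1) scale C1galt1c1 stood at 10.9 in the major clone of female tumour 22, with the nearest at 10.4. Galnt3 stood at 12.49 and Galnt7 at 11.57 in undivided female tumour 9, with the nearest at 12.0 and 11.3; the 2 values come from 1 library. Galnt12 was low in the minor clone of male tumour 22, at 9.73, with the nearest at 10.2. Muc2 was at 9.34 in the minor clone of male tumour 19, where the nearest was 11.9. The Galnt4 difference between clones was -0.70 in female tumour 27, with the nearest at -0.16.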

How the results depend on the processing

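Of the 9 comparisons, 1 changed its count of enzymes called. Undivided tumours against minor clones had 0 in the fit reported and 1 under 4 of 14 alternatives: quantile normalization (Fut2, -0.55, limma adjusted p = 0.0335), each library scaled to the same sum (Fut2, -0.60, limma adjusted p = 0.0471), Rn18s as a covariate (Fut2, -0.63, limma adjusted p = 0.00225) and the male mouse alone (Gcnt1, -0.69, limma adjusted p = 0.0464). The cause was not tested. Leaving out 1 tumour or library gave 0 to 1 for major against minor clones, 0 to 1 for undivided tumours against minor clones and 0 to 0 against major clones. The other 8 comparisons had 0 under every other alternative run, apart from Galnt7 between clones, which passed when female tumour 19 or 27 was left out. Without the tumour block, major against minor clones still had 0 enzymes called, and 0 genes of the table against 188 with it; every pairing is within a tumour, and in female tumour 22 the clones were labelled with different segments. Of 948 values of single enzymes and Muc2, 68 changed sign, none of them with an adjusted p under 0.05, and 4 crossed the threshold. Counts over the table moved further: for major against minor clones 25 to 859 (median 108) when 1 tumour was left out, 344 with quantile normalization, 89 without trend, 85 with no filter, 33 in the male and 0 in the female mouse alone, and for undivided tumours against minor clones 274 to 959. Depth per library is unknown, which limits St6galnac1, B3gnt6 and other genes near 0, and 2 mice limit every statement to these animals.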
